A study of Homo sapiens with 8 samples.

Results

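The genes described here act in G2 and mitosis: mitotic kinases, cyclins, checkpoint and anaphase-promoting complex (APC/C) partners, kinesins, kinetochore subunits, spindle proteins and cytokinesis factors. They are 56 genes, of which 55 had at least 1 probe set with that gene symbol alone. Together they had 145 of the 49395 probe sets on the array, and the array held 18132 named genes. PTTG1, the securin that holds separase inactive, had no probe set of its own symbol alone and was not analysed here. Gene expression was measured on 1 Affymetrix array per culture in the human hepatocellular carcinoma lines Huh7.5.1 and Hep3B. The groups were Huh7.5.1 with 10 μM CU27, Huh7.5.1 with DMSO and Hep3B with DMSO, each kept for 48 h and each with 2 biological replicates. CU27 is a compound known here by its code name only, and DMSO is its solvent. Medium was DMEM or MEM with fetal bovine serum for all groups, and which line had which was not stated. The Hep3B CU27 columns were linear functions of the Hep3B DMSO columns and were left out, so CU27 is described in Huh7.5.1 only.

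In a dividing cell, cyclin B and CDK1 start mitosis, Aurora and Polo-like kinases and kinesins build the spindle, and kinetochores tie each chromosome to its microtubules. The spindle checkpoint holds back the APC/C until all chromosomes are attached, after which separase parts the sister chromatids and the cell divides by cytokinesis. Many of these genes are transcribed late in the cell cycle by the MuvB complex with B-MYB and FOXM1 through a promoter element called CHR, often beside CCAAT boxes bound by NF-Y, and the DREAM complex represses them in resting cells. Most hepatocytes of adult liver are resting and carry little of these transcripts, while liver cancer cells express them.

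The arrays within each group were alike, with Pearson correlations over probe sets of 0.991 in Huh7.5.1 CU27, 0.993 in Huh7.5.1 DMSO and 0.994 in Hep3B DMSO. The floor was a log2 signal of 6.11, the 50th percentile of all values that were not controls, and is not a detection limit. All 10 liver epithelial markers on the array reached it, among them ALB, the serum albumin gene. APOB, SERPINA1 and TTR of that list fell with CU27, with differences of -1.28, -0.66 and -0.94. Of 5 leukocyte markers, 2 reached the floor, CD68 and CD14. CD14 reached it in Hep3B only. In Huh7.5.1, below the floor, CD14 had a difference of -0.69 with CU27 (limma, adjusted p = 0.0214), opposite to CD68. The summed signal of the list, as log2, was 9.14 and 9.55 in CU27 and 7.92 and 7.75 in DMSO of Huh7.5.1. CD68, a lysosomal protein abundant in macrophages, rose by 2.25, while the pan-leukocyte gene PTPRC stayed below the floor in every group (highest group mean 3.48). Of 8 fibroblast and endothelial markers, 2 reached the floor, and the sum of the list was 8.38 and 8.35 in CU27 and 8.33 and 8.59 in DMSO.

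Most mitotic genes were lower in CU27-treated Huh7.5.1 cells. Of the 55 measured members, 30 fell and 3 rose past the test, and 22 were not past it (limma with Benjamini-Hochberg adjustment over 11383 genes, adjusted p threshold 0.05). Over all genes tested, 12.1% fell and 12.6% rose. All 55 members passed the filter on dim genes, and the mean of each lay above the floor in every group. The median difference of the members, CU27 minus DMSO, was -0.55 on the log2 scale, against 0.02 for all genes, and 49 of the 55 differences were negative. At an unadjusted p under 0.05, 39 fell and the same 3 rose, CDC25B, SPC24 and CENPN, so each role with 0 rises by the adjusted p had 0 at that level too. The range ran from -1.50 for HMMR to 0.77 for CENPN. Both CU27 arrays lay below both DMSO arrays for 45 members and above both for 5, where 31% and 32.9% of all genes did so. Groups that do not overlap, as given for single members below, were thus common among all genes. A fall of at least 2-fold was found for 6 members, HMMR, NDC80, CCNB1, CENPE, CCNB2 and KIF11, against 3.01% of all genes. In bulk RNA, fewer cells in G2 and mitosis and less RNA per such cell cannot be told apart.

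**Figure D1:**
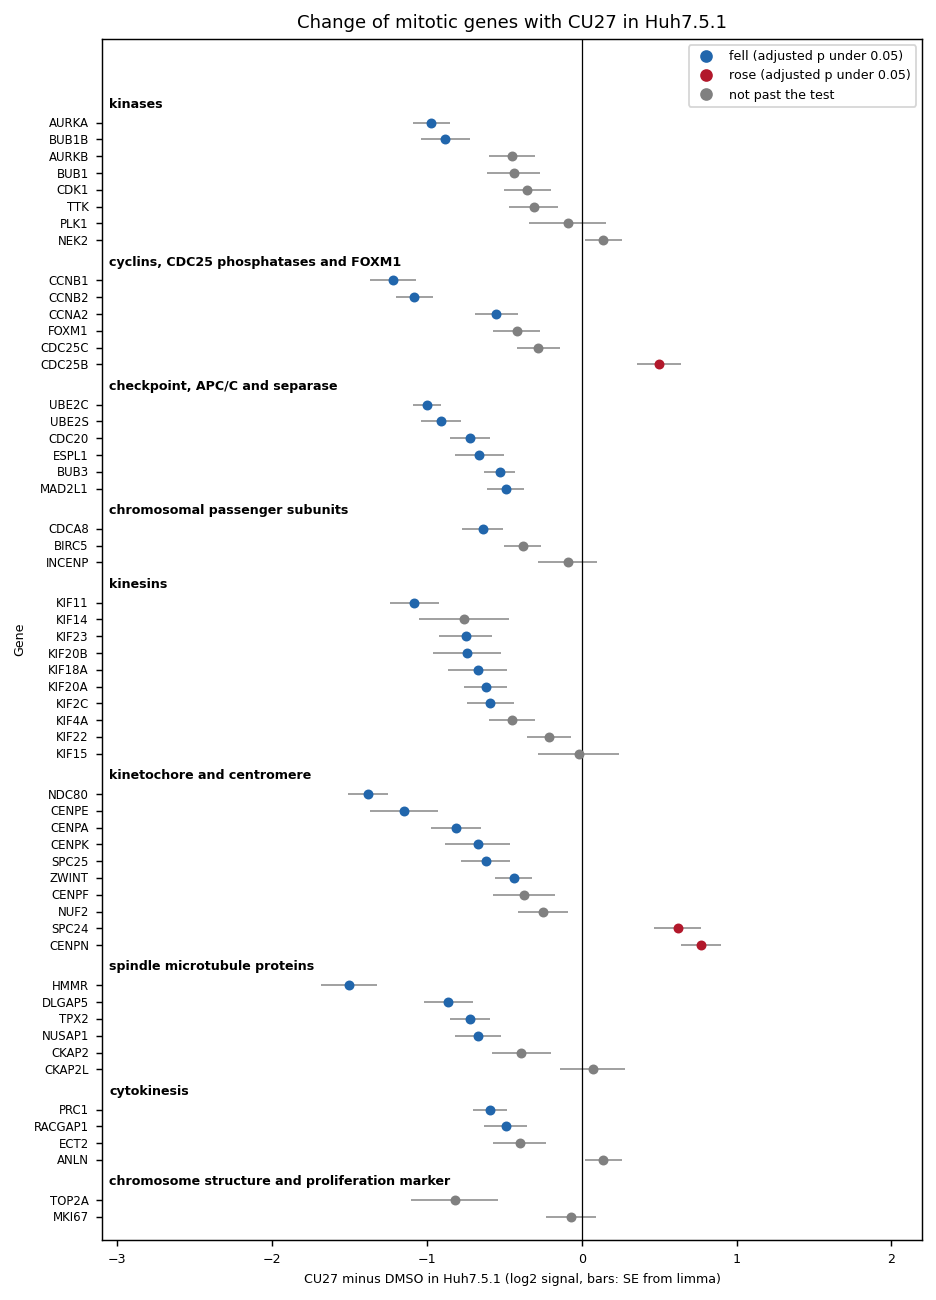
Difference of each measured member, CU27 minus DMSO in Huh7.5.1, in log2 signal on the horizontal axis, with members grouped by role down the page (points: limma estimate over 2 arrays a group, bars: SE). Blue points fell and red points rose at an adjusted p under 0.05, and grey points were not past the test. The 30 blue points lie in every role except that of TOP2A and MKI67, and the 3 red points are CDC25B, SPC24 and CENPN, whose other probe sets are described in the text.

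The number of falls past the test depended on single arrays. With either DMSO array or CU27 replicate 2 left out, fewer falls were past it, among the members and over all genes alike. The median difference of the members was -0.55 without DMSO replicate 2, against 0.02 for all genes. It was -0.52 without DMSO replicate 1, against 0, and -0.51 without CU27 replicate 2, against -0.01. The 21 falls lost without DMSO replicate 2 kept negative differences, from -1.10 to -0.36. The falls of AURKA, CCNB1, CCNB2, CDC20, HMMR, KIF11, NDC80, UBE2C and UBE2S stayed past the test in each alternative that measured them.

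The promoters of the members are shown because many genes of this kind are known to share a class of promoter element. RefSeq (GRCh38.p14) gave a promoter for 48 of the 56 members, taken as 250 bases before to 50 bases after the annotated start, or 300 bases. A CHR was searched as TTTGAA or TTTAAA and an NF-Y box as CCAAT, on both strands. TTTAAA reads the same on either strand, and matches were allowed to overlap. The largest fall, HMMR, and CCNB1, CCNB2 and CDC20 are printed as members that fell, and CDC25B and SPC24 as members that rose. These examples were picked by hand and do not stand for all members. CENPN, which rose by the probe set used and has a TTTGAA at position 4, is not printed. Nor is NDC80, which fell and has a TTTGAA at -3 but no CCAAT. CCNA2, UBE2S and CENPK fell and had neither TTTGAA nor TTTAAA in the window. Other spellings of a CHR were not searched, so this does not show that they lack one. CDK1, PLK1, TOP2A and MKI67 were not past the test and had both elements. Each sequence runs 5′ to 3′ on the gene's strand from position -200 to -1, the base before the annotated start, with CHR and NF-Y matches in capitals. HMMR lies at chr5:163460432-163460631 on the plus strand, CCNB1 at chr5:69166950-69167149 plus, CCNB2 at chr15:59104946-59105145 plus and CDC20 at chr1:43358781-43358980 plus. CDC25B lies at chr20:3786751-3786950 on the plus strand and SPC24 at chr19:11155783-11155982 on the minus strand.
HMMR: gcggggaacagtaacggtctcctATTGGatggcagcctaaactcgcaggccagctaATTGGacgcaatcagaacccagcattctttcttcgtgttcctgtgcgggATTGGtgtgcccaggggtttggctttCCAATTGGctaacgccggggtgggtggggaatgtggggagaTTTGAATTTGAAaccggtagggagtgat
CCNB1: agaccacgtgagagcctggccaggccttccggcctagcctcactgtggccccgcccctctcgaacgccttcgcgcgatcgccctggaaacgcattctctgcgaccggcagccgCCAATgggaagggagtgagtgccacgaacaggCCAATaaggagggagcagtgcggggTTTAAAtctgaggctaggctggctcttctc
CCNB2: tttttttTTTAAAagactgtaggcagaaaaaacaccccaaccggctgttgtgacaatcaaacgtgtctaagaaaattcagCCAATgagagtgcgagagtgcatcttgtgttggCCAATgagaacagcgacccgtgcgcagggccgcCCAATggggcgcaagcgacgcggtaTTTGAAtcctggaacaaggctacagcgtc
CDC20: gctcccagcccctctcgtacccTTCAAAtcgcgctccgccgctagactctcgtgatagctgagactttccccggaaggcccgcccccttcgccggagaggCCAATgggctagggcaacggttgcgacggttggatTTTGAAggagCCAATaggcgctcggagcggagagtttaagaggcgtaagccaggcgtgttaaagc
CDC25B: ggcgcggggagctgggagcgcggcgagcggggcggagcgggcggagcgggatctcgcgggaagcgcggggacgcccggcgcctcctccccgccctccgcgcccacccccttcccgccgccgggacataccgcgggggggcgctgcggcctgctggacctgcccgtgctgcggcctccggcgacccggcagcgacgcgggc
SPC24: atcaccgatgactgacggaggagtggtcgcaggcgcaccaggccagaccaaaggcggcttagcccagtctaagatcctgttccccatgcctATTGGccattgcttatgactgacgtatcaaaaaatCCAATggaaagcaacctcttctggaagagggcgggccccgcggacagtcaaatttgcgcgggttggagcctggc

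In the CCNB1 window a TTTAAA starts at position -30, after CCAAT boxes at -87 and -55. In that of CCNB2 a TTTGAA starts at -29, after boxes at -120, -87 and -54. HMMR holds a pair of adjoining TTTGAA at -28 and -22, and its boxes at -69 and -66 overlap on opposite strands. CDC20 has a TTTGAA at -65, just before a box at -55. No CHR letters were found in the whole 300 bases of CDC25B or SPC24, and CDC25B had no CCAAT either.

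At least 1 CHR was found in 37 of the 48 member promoters (77.1%), against 24.3% of all 27305 promoters of the same length. TTTGAA was found in 66.7% of the members' promoters and 15.4% of all promoters, and TTTAAA in 27.1% and 12.3%. A CCAAT was found in 38 (79.2%), against 35.7% of all promoters, and both elements in 30 (62.5%), against 9.49%. A CHR that starts at most 40 bases after the start of a CCAAT was found in 22 members (45.8%), against 2.04% of all promoters, a distance chosen after the positions were seen. The E2F core TTCCCGC was found in 5 members (10.4%), against 6.56% of all. Among members with a promoter, 22 of 25 that fell (88%), 13 of 19 not past the test (68.4%) and 1 of 3 that rose (33.3%) held a CHR. The 1 that rose was CENPN, whose match lies after the annotated start, as do all CHR matches of MAD2L1, KIF20B and NUF2. Of these, MAD2L1 and KIF20B fell and NUF2 was not past the test. The 3 that rose did so by 1 probe set each, and 0 rose when each gene was averaged over its probe sets. Whether a CHR has a part in the changes with CU27 was not tested. A match describes the letters only and shows no binding, and the lack of a match does not show that a CHR is absent.

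**Figure D2:**
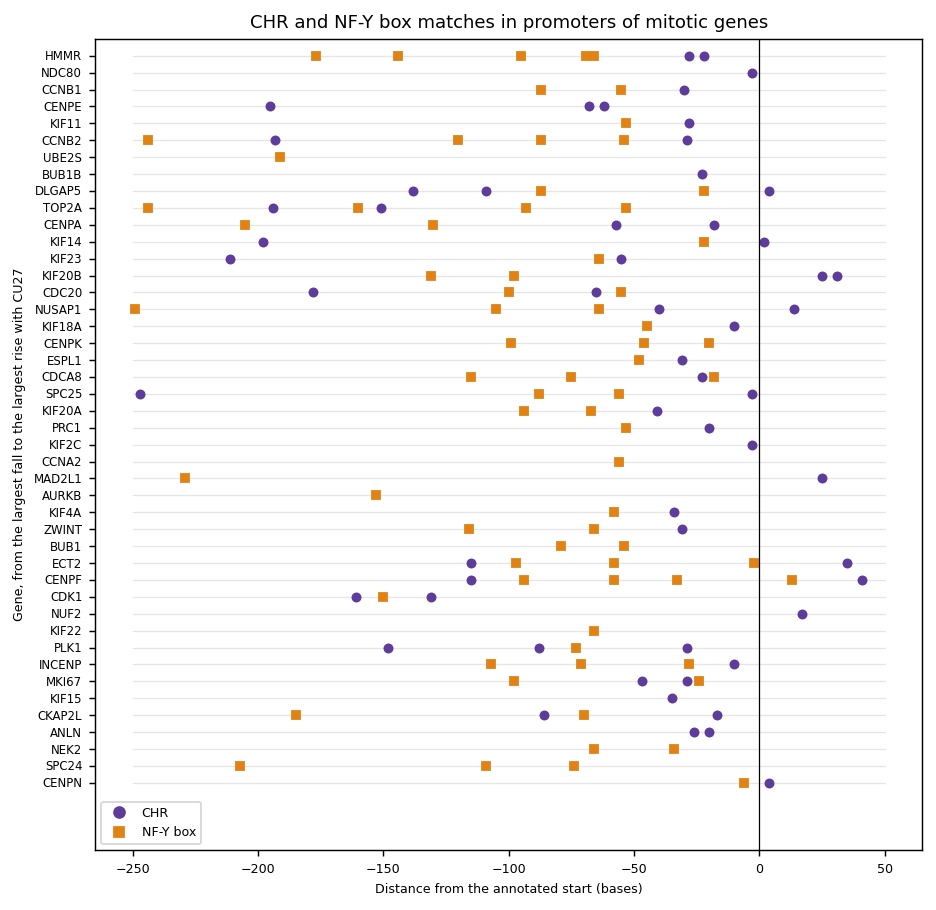
Positions of CHR matches (circles) and NF-Y box matches (squares) relative to the annotated start on the horizontal axis, in bases, for the 44 measured members with at least 1 match, ordered from the largest fall with CU27 at the top to the largest rise at the bottom. In 22 of the 48 members with a promoter a CHR starts at most 40 bases after the start of an NF-Y box, a distance chosen after the positions were seen.

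Among the kinases, 2 of 8 fell and 0 rose, with a median difference of -0.39. AURKA, the Aurora kinase of centrosomes and spindle poles, had log2 signals of 9.53 and 9.61 in CU27 and 10.45 and 10.63 in DMSO. It fell by 0.97 ± 0.12 (SE, n = 2 arrays a group, adjusted p = 0.00153), to 51.1% of its DMSO level, and the groups lay far apart. BUB1B, the checkpoint kinase-like protein BubR1, had 8.75 and 9.13 in CU27 and 9.75 and 9.90 in DMSO, and fell by 0.88 ± 0.16 (adjusted p = 0.00526). Here the CU27 arrays differed more from each other than the DMSO arrays did, with no overlap. AURKB, the Aurora kinase of the chromosomal passenger complex, had 8.57 and 8.49 in CU27 and 9.05 and 8.90 in DMSO, and its difference of -0.45 ± 0.15 was just short of the threshold (adjusted p = 0.0559). CDK1, the kinase that drives entry into mitosis, had 11.02 and 10.58 in CU27 and 11.20 and 11.10 in DMSO, a difference of -0.35 ± 0.15 (adjusted p = 0.126). For both genes the groups did not overlap, as for 31% of all genes on the lower side, but the test was not passed. AURKB was past it in 4 of 15 alternatives, among them quantile normalization and the mean of all probe sets (limma, adjusted p = 0.0462 and 0.047). PLK1, the Polo-like kinase of centrosome maturation and mitotic exit, had 6.83 and 7.66 in CU27 and 7.40 and 7.26 in DMSO, with a difference of -0.09 ± 0.25 (adjusted p = 0.843). The CU27 arrays of PLK1 lay on either side of both DMSO arrays. NEK2, a kinase of centrosome separation, was the member whose difference was positive, with 10.04 and 10.05 in CU27, 9.88 and 9.93 in DMSO and a difference of 0.14 ± 0.12 (adjusted p = 0.446). BUB1 and TTK, kinases of the spindle checkpoint, had differences of -0.44 and -0.31 and were not past the test. Without DMSO replicate 2, BUB1B was at -0.81 and no longer past the test (adjusted p = 0.0523, range over alternatives 0.00125 to 0.0523). Without CU27 replicate 1, CDK1 was at -0.56 and past the test, with an adjusted p of 0.0161 (range 0.0161 to 0.549).

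Of 6 cyclin, CDC25 and FOXM1 genes, 3 fell and 1 rose, and the 3 that fell were the cyclins. CCNB1, the B-type cyclin that partners CDK1, had 8.27 and 8.38 in CU27 and 9.39 and 9.69 in DMSO, and fell by 1.22 ± 0.15 (adjusted p = 0.0013) to 43.0% of its DMSO level. CCNB2, the other B-type cyclin, had 8.56 and 8.68 in CU27 and 9.70 and 9.71 in DMSO, and fell by 1.08 ± 0.12 (adjusted p = 0.00108). Both B-type cyclins were separated from DMSO by about the same amount, while CCNA2, the A-type cyclin of S phase and early mitosis, had a smaller difference. CCNA2 had 8.19 and 8.18 in CU27 and 8.77 and 8.69 in DMSO, and fell by 0.55 ± 0.14 (adjusted p = 0.02). CDC25B, a phosphatase that activates CDK1 at mitotic entry, had 9.68 and 9.91 in CU27 and 9.23 and 9.36 in DMSO, a rise of 0.50 ± 0.14 (adjusted p = 0.0307). Its relative CDC25C and the transcription factor FOXM1 were at -0.28 ± 0.14 and -0.42 ± 0.15 and were not past the test (adjusted p = 0.169 and 0.0677). Without CU27 replicate 1 FOXM1 was at -0.53 and past the test (adjusted p = 0.0474, range over alternatives 0.0474 to 0.239). CDC25B thus moved opposite to the cyclins, but by 1 of its 5 tested probe sets only, and the other 4 ran from 0.08 to 0.30. Its call was lost when either Hep3B array (adjusted p = 0.0545 and 0.0538), either DMSO array of Huh7.5.1 (adjusted p = 0.152 and 0.1) or CU27 replicate 2 (adjusted p = 0.13) was left out. That of CCNA2 was lost on leaving out either DMSO array (adjusted p = 0.109 and 0.0918) or CU27 replicate 2 (adjusted p = 0.0614).

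All 6 measured genes of the checkpoint, APC/C and separase role fell, with a median of -0.69. UBE2C, the ubiquitin-conjugating enzyme that starts chains for the APC/C, had 11.04 and 11.03 in CU27 and 12.02 and 12.04 in DMSO. It fell by 1.00 ± 0.09 (adjusted p = 0.000394), and the arrays of each group nearly coincided. UBE2S, which extends those chains, had 11.17 and 11.14 in CU27 and 12.02 and 12.11 in DMSO, and fell by 0.91 ± 0.13 (adjusted p = 0.00247). CDC20, the activator of the APC/C at anaphase, had 10.07 and 10.29 in CU27 and 10.90 on both DMSO arrays, and fell by 0.72 ± 0.13 (adjusted p = 0.00498). The enzymes and their activator therefore fell in the same cultures, with no overlap of groups, as for 31% of all genes on the lower side. MAD2L1, the checkpoint protein that binds CDC20, had the smallest difference, with 9.60 and 9.61 in CU27 and 10.09 and 10.11 in DMSO, and fell by 0.49 ± 0.12 (adjusted p = 0.0168). ESPL1, which is separase, and the checkpoint protein BUB3 fell by 0.66 and 0.53. The calls of BUB3, MAD2L1 and ESPL1 were lost without DMSO replicate 2 (adjusted p = 0.0605, 0.108 and 0.0759), and those of MAD2L1 and ESPL1 also without DMSO replicate 1 (adjusted p = 0.0735 and 0.0943), with ESPL1 lost without CU27 replicate 2 as well (adjusted p = 0.0757). With the mean of all probe sets, MAD2L1 and ESPL1 were at -0.33 and -0.32 (adjusted p = 0.104 and 0.101).

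Of the 3 chromosomal passenger subunits, which target Aurora B to centromeres and the midzone, 1 fell. CDCA8, known as borealin, had 8.89 and 8.94 in CU27 and 9.55 and 9.57 in DMSO, and fell by 0.64 ± 0.13 (adjusted p = 0.00953). BIRC5, known as survivin, had 9.34 and 9.49 in CU27 and 9.84 and 9.76 in DMSO, a difference of -0.38 ± 0.12 that was just short of the threshold (adjusted p = 0.0536). INCENP, the scaffold of the complex, had 7.07 and 6.77 in CU27 and 7.16 and 6.87 in DMSO, a difference of -0.09 ± 0.19 (adjusted p = 0.767). The INCENP groups overlapped, whereas those of CDCA8 and BIRC5 did not, as for 31% of all genes on the lower side. BIRC5 was past the test in 3 of 15 alternatives, among them quantile normalization and the mean of all probe sets (limma, adjusted p = 0.0441 and 0.0464). Without DMSO replicate 2, CDCA8 was at -0.63 and not past the test (adjusted p = 0.0734).

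Of 10 kinesins, which move along or depolymerise microtubules, 6 fell and 0 rose, and all 10 differences were negative. KIF11, the motor that pushes spindle poles apart, had 8.57 and 8.58 in CU27 and 9.57 and 9.74 in DMSO, and fell by 1.08 ± 0.16 (adjusted p = 0.00239) to 47.3% of its DMSO level. KIF23, a motor of the centralspindlin complex, had 8.19 and 8.32 in CU27 and 8.81 and 9.20 in DMSO, and fell by 0.75 ± 0.17 (adjusted p = 0.013). The DMSO arrays of KIF23 stood further from each other than the CU27 arrays, yet both exceeded them. KIF20A, a motor of the midzone and cytokinesis, had 7.49 and 7.30 in CU27 and 8.00 and 8.02 in DMSO, and fell by 0.62 ± 0.14 (adjusted p = 0.0151). KIF20B, KIF18A and the microtubule depolymerase KIF2C fell by 0.74, 0.67 and 0.59. KIF15, a spindle motor that can act in place of KIF11, had the smallest difference, with 7.47 and 7.44 in CU27, 7.59 and 7.37 in DMSO and -0.02 ± 0.26 (adjusted p = 0.966). KIF15 was thus within the spread of its DMSO arrays, in contrast to KIF11, although the difference between the motors was not tested. KIF14, KIF4A and KIF22 had differences of -0.76 ± 0.29, -0.45 ± 0.15 and -0.21 ± 0.14 and were not past the test. With the mean of all probe sets KIF14 was at -0.82 and past it (limma, adjusted p = 0.0298). Without CU27 replicate 1 KIF4A was at -0.59. Calls of KIF23, KIF20A, KIF20B, KIF18A and KIF2C were lost without DMSO replicate 2 (adjusted p = 0.117, 0.101, 0.154, 0.194 and 0.161). KIF20A, KIF20B and KIF18A also lost theirs without DMSO replicate 1 (adjusted p = 0.0716, 0.137 and 0.0788) and CU27 replicate 2 (adjusted p = 0.0673, 0.116 and 0.107), and KIF20B, KIF18A and KIF2C without CU27 replicate 1 (adjusted p = 0.109, 0.0842 and 0.0693).

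Of 10 kinetochore and centromere genes, 6 fell and 2 rose, and the role held NDC80, the largest fall after HMMR, and CENPN, the largest rise. NDC80, the microtubule-binding subunit of the NDC80 complex, had 8.90 and 8.88 in CU27 and 10.29 and 10.24 in DMSO, and fell by 1.38 ± 0.13 (adjusted p = 0.000627) to 38.5% of its DMSO level. Its partners in the complex had differences of both signs. SPC25 fell by 0.62 ± 0.16 (adjusted p = 0.0236), NUF2 was at -0.25 ± 0.16 (adjusted p = 0.307), and SPC24 had 7.69 and 7.49 in CU27 and 7.01 and 6.93 in DMSO, a rise of 0.62 ± 0.15 (adjusted p = 0.0168). The groups did not overlap for any of these 4 subunits, as for 31% of all genes on the lower and 32.9% on the higher side. CENPA, the histone variant that marks centromeres, had 7.12 and 7.31 in CU27 and 7.96 and 8.09 in DMSO, and fell by 0.81 ± 0.16 (adjusted p = 0.00728). CENPE, the kinetochore motor that carries chromosomes to the spindle equator, fell by 1.15 ± 0.22 (adjusted p = 0.00729), with 7.55 and 7.45 in CU27 and 8.60 and 8.70 in DMSO. Both genes were lower on each CU27 array than on each DMSO array. CENPN, a centromere protein that recognises CENP-A nucleosomes, had 11.73 and 11.84 in CU27 and 11.12 and 10.92 in DMSO by its brightest probe set, a rise of 0.77 ± 0.13 (adjusted p = 0.00372). That direction was not shared by its other tested probe sets. CENPK and ZWINT fell by 0.67 and 0.44, and CENPF, at -0.37 ± 0.20, was not past the test. Calls of SPC25, SPC24, CENPA, CENPE, CENPK and ZWINT were lost without DMSO replicate 2 (adjusted p = 0.0883, 0.119, 0.0692, 0.0603, 0.224 and 0.182), of SPC25, SPC24, CENPK and ZWINT without DMSO replicate 1 (adjusted p = 0.131, 0.0653, 0.0919 and 0.057), of SPC25, CENPK and ZWINT without CU27 replicate 2 (adjusted p = 0.111, 0.181 and 0.115), and of SPC24 and CENPK without CU27 replicate 1 (adjusted p = 0.0561 and 0.0583). ZWINT was also not past the test without Hep3B DMSO replicate 2 or 3 (adjusted p = 0.0545 and 0.0534) or in 4 further alternatives, and SPC24, averaged over its probe sets, was at 0.20 (adjusted p = 0.357).

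Of 6 spindle microtubule proteins, 4 fell and 0 rose, with a median of -0.70, the lowest of the roles. HMMR, a hyaluronan receptor and spindle assembly protein, had 8.67 and 9.02 in CU27 and 10.34 and 10.36 in DMSO, and was 2.84-fold lower with CU27 (difference -1.50 ± 0.18, adjusted p = 0.0013). The gap between its groups was several times the distance between its CU27 arrays. TPX2, which activates Aurora A and nucleates spindle microtubules, had 9.55 and 9.74 in CU27 and 10.27 and 10.47 in DMSO, and fell by 0.72 ± 0.13 (adjusted p = 0.00545). DLGAP5, a spindle-stabilising protein, had 8.01 and 8.07 in CU27 and 8.78 and 9.03 in DMSO, and fell by 0.86 ± 0.16 (adjusted p = 0.00701). Both genes were lower on each CU27 array than on each DMSO array, and the microtubule-bundling NUSAP1 fell by 0.67. CKAP2L, a spindle protein, was the member of the role with a positive difference, with 7.98 and 7.60 in CU27, 7.88 and 7.56 in DMSO and 0.07 ± 0.21 (adjusted p = 0.861). Its groups overlapped, and CKAP2, a related microtubule-binding protein, had -0.39 ± 0.19 and was not past the test. Calls of TPX2, DLGAP5 and NUSAP1 were lost without DMSO replicate 2 (adjusted p = 0.0575, 0.0704 and 0.0924), and that of NUSAP1 also without DMSO replicate 1 or CU27 replicate 2 (adjusted p = 0.105 and 0.0907).

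Of 4 cytokinesis genes, 2 fell and 0 rose. PRC1, which bundles the microtubules of the midzone, had 10.41 and 10.57 in CU27 and 11.03 and 11.13 in DMSO, and fell by 0.59 ± 0.11 (adjusted p = 0.00764). RACGAP1, the partner of KIF23 in centralspindlin, had 8.74 and 8.65 in CU27 and 9.28 and 9.09 in DMSO, and fell by 0.49 ± 0.14 (adjusted p = 0.0374). Both kept their groups apart, and so did ECT2, the cytokinesis factor that RACGAP1 recruits, at -0.40 ± 0.17 (adjusted p = 0.123). On the lower side, 31% of all genes had their groups apart. ANLN, the anillin scaffold of the contractile ring, went the other way, with 10.06 and 10.15 in CU27, 9.98 and 9.96 in DMSO and a difference of 0.14 ± 0.12 (adjusted p = 0.462). All 4 of its probe sets lay between 0.13 and 0.15. Without DMSO replicate 2, PRC1 was not past the test (adjusted p = 0.0709). RACGAP1 lost its call in 10 of 15 alternatives, among them each of the 6 arrays left out in turn (adjusted p from 0.0537 to 0.204).

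TOP2A and MKI67 were not past the test by the probe set used. TOP2A, the topoisomerase that untangles sister chromatids, had 10.89 and 10.07 in CU27 and 11.66 and 10.94 in DMSO, a difference of -0.82 ± 0.28 (adjusted p = 0.0651). Replicate 1 was the higher array in both groups, and the upper CU27 array lay just below the lower DMSO array. MKI67, the Ki-67 protein used to count cycling cells, had 8.67 and 8.48 in CU27 and 8.81 and 8.46 in DMSO, a difference of -0.07 ± 0.16 (adjusted p = 0.817), with overlapping groups. Other probe sets of both genes fell. TOP2A was past the test with centred arrays (adjusted p = 0.0483), at -0.81 when averaged over its probe sets (adjusted p = 0.00649), at -1.18 without DMSO replicate 2 (adjusted p = 0.049) and at -1.23 without CU27 replicate 1 (adjusted p = 0.0159, range over alternatives 0.00065 to 0.357).

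**Figure D3:**
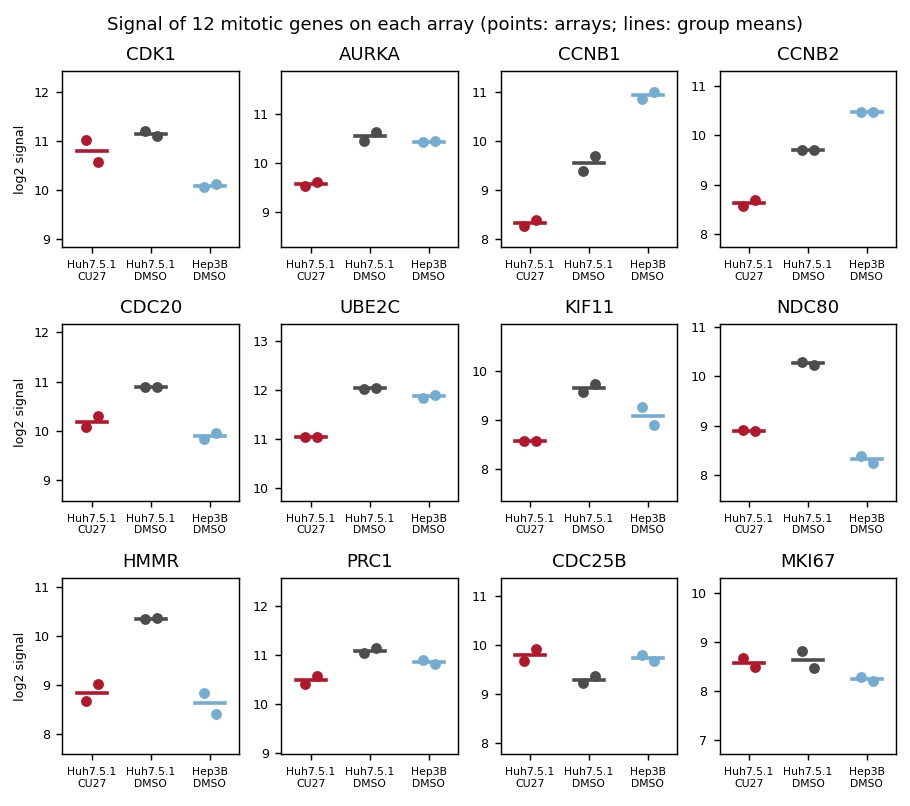
Log2 signal on each array for 12 members in Huh7.5.1 CU27 (red), Huh7.5.1 DMSO (dark grey) and Hep3B DMSO (light blue), with points for arrays and lines for group means. Every panel spans the same number of log2 units. CCNB1, CCNB2, UBE2C, NDC80 and HMMR sit lower in CU27 than in DMSO of the same line on both arrays, CDC25B sits higher, and MKI67 overlaps.

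The 55 genes had 145 probe sets, of which 131 reached the floor and were tested one by one. Of these 62 fell (47.3%) and 3 rose, where 11.3% and 10.4% of all 27836 tested probe sets did so. Of the 35 genes with more than 1 tested probe set, 3 had differences of both signs, NEK2, CKAP2L and CENPN, and CENPN alone had calls in both directions. Its brightest probe set rose by 0.77, while 3 others fell, to differences of -0.94, -1.15 and -0.98, and a further 1 was at -0.49. The CENPN probe set that fell most had log2 signals of 7.11 and 7.18 in CU27 and 8.33 and 8.26 in DMSO. The 3 members that rose each did so by 1 probe set, and when each gene was averaged over its probe sets 0 members rose by limma, also at an unadjusted p under 0.05, and CENPN was at -0.46.

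Several genes not past the test by the probe set used had others that fell. MKI67 had 6 tested probe sets, of which 3 fell, by 0.79, 0.95 and 0.54. A further MKI67 probe set had 8.63 and 7.12 in CU27 and 8.80 and 6.95 in DMSO, so replicates differed far more than treatments. TOP2A had 2 others, which fell by 0.90 and 0.72 (adjusted p = 0.00384 and 0.00745), and their replicates lay close together. CKAP2 had 3 of 5 and BIRC5 4 of 9 probe sets that fell. All 4 probe sets of HMMR fell, by 1.30 to 1.50, as did all 4 of UBE2C, all 3 tested of PRC1 and all 3 of NUSAP1.

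**Figure D4:**
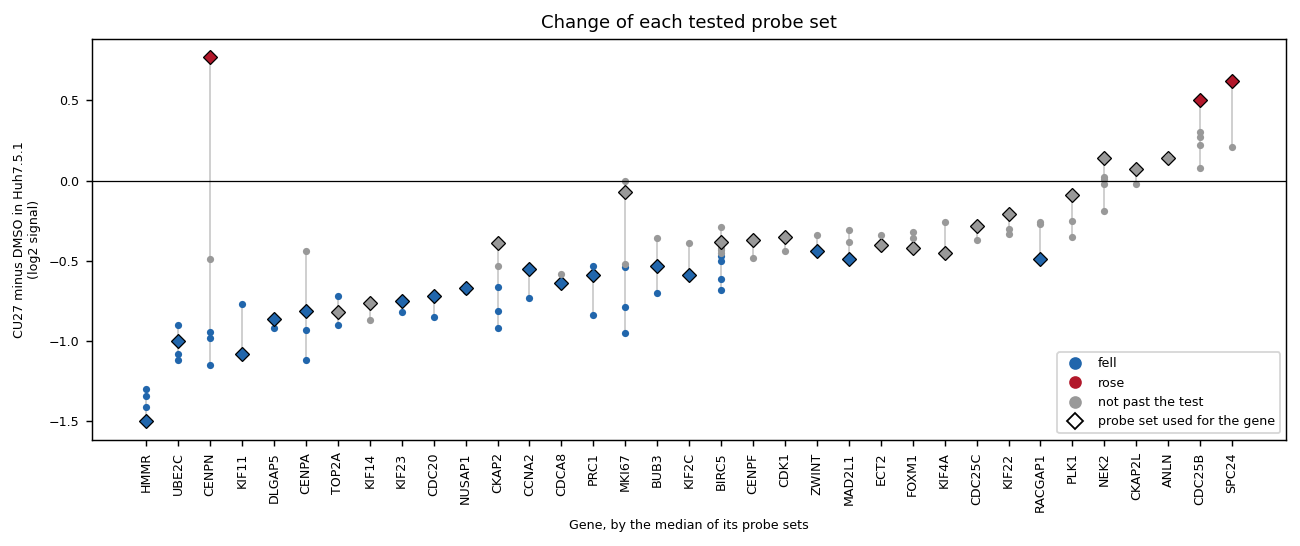
Difference of each tested probe set, CU27 minus DMSO in Huh7.5.1, in log2 signal on the vertical axis, for the 35 members with more than 1 tested probe set, ordered by the median of their probe sets. Diamonds are the probe sets used for the gene, blue fell, red rose and grey was not past the test. CENPN spans from -1.15 to 0.77, and the diamonds of MKI67, CKAP2 and BIRC5 lie above most of their other probe sets.

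Among 92 tested genes of the same processes outside the 56, 24 fell (26.1%) and 1 rose (1.09%) with CU27, with a median difference of -0.22. Of all genes 12.1% fell and 12.6% rose. Of 14 further genes of entry and checkpoint, 5 fell, with FBXO5, an inhibitor of the APC/C, at -1.08 (adjusted p = 0.00204), the phosphatase CDC25A at -0.83 (adjusted p = 0.00384) and the Aurora A cofactor BORA at -0.76 (adjusted p = 0.0135). Of 12 core subunits of the APC/C, 1 fell, ANAPC13 at -0.46 (adjusted p = 0.0309), and the median was 0.01. ANAPC11 and ANAPC2, at 0.26 and 0.62, were not past the test.

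Of 25 further kinetochore and centromere genes, 6 fell and 0 rose by limma, also at an unadjusted p under 0.05, and the lowest p-values were those of the SKA complex, which keeps kinetochores on shrinking microtubules. SKA2 was at -1.09 (adjusted p = 0.00237), SKA3 at -0.86 (adjusted p = 0.00443) and SKA1 at -0.75 (adjusted p = 0.00958). Of 25 further spindle, centrosome and cytokinesis genes, 7 fell and 0 rose by either measure. TUBB4B, a beta-tubulin, was at -0.66 (adjusted p = 0.00216) and ASPM, a spindle pole protein, at -1.43 (adjusted p = 0.00493). Of 16 condensin, cohesin and other chromosome genes, 5 fell and 1 rose. The condensin I subunit NCAPG was at -0.72 (adjusted p = 0.00622), the cohesin release factor WAPL at -0.80 (adjusted p = 0.00657), and the condensin II subunit NCAPH2 rose by 0.68 (adjusted p = 0.00752).

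Of 12 genes of the MuvB, B-MYB and DREAM factors that act on CHR promoters, 2 fell (16.7%) and 1 rose (8.33%). These shares were near the 12.1% and 12.6% of all genes. E2F5, a repressive E2F of the DREAM class, had 8.76 and 8.59 in CU27 and 10.01 and 10.07 in DMSO, a difference of -1.36 (adjusted p = 0.000794). LIN37 and LIN9, subunits of MuvB, moved apart, with LIN37 at 0.95 (adjusted p = 0.00799) and LIN9 at -0.62 (adjusted p = 0.0486). MYBL2, which encodes B-MYB, had 9.28 and 9.00 in CU27 and 9.02 and 9.00 in DMSO and was not past the test at 0.13 (adjusted p = 0.631). The transcripts past the test thus ran both ways. Over the 12 the median difference was -0.21, with 8 differences negative, and protein activity was not measured.

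Between the lines in DMSO, the members split in both directions. Relative to the median difference of all tested genes, 0.22 log2 units higher in Huh7.5.1, 15 of the 55 were higher and 22 lower in Huh7.5.1 and 18 were not past the test. Of all genes, 30.3% were higher and 31.3% lower, so the members' counts were close to those of genes in general. The median over members was -0.12. The split depended on scaling, at 18 higher and 17 lower with no shift taken off, 14 and 22 with quantile normalization, and 10 and 27 with each array centred on its median. Of all genes 22.9%, 35.1% and 40.8% were lower in these settings, in that order, so the share of all genes moved with scaling too. The comparison shares the Huh7.5.1 DMSO arrays with that of CU27. Its p-values take the Hep3B DMSO columns as separate cultures, although the left-out Hep3B CU27 columns are linear functions of them. Whether the Hep3B DMSO columns are independent measurements was not tested. ACTB probe sets at the 3′ and 5′ ends differed by 0.94 and 1.06 in Huh7.5.1 DMSO and by 2.28 and 1.60 in Hep3B DMSO, and the part of RNA integrity in the line differences was not tested.

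Of the 6 largest differences after the shift, 4 were in kinetochore genes, and these ran both ways. With no shift taken off, CENPE and CENPN, both at 1.34, took the places of CENPA and SPC24, at -1.32 and -1.30, and the 4 kinetochore genes were all higher in Huh7.5.1. NDC80 had 10.29 and 10.24 in Huh7.5.1 and 8.39 and 8.24 in Hep3B, 1.73 ± 0.13 higher after the shift (adjusted p = 8.38e-06). CENPK, a subunit of the constitutive centromere network, had 9.18 and 9.38 in Huh7.5.1 and 7.82 and 7.23 in Hep3B, 1.53 ± 0.21 higher (adjusted p = 0.000218). CENPA had 7.96 and 8.09 in Huh7.5.1 and 9.45 and 9.24 in Hep3B, a difference of -1.55 ± 0.16 (adjusted p = 3.95e-05). SPC24 had 7.01 and 6.93 in Huh7.5.1 and 8.28 and 8.25 in Hep3B, a difference of -1.52 ± 0.15 (adjusted p = 3.24e-05). By the probe sets used, the subunits NDC80 and SPC24 of the same complex differed in opposite directions between the lines. The SPC24 value rests on its brightest probe set, and the others lay in the direction of NDC80. Its other tested probe set was at 0.70 and those not tested were at 0.58, 1.13 and 0.21. The mean of all its probe sets was at 0.12 (adjusted p = 0.491). HMMR had 10.34 and 10.36 in Huh7.5.1 and 8.85 and 8.42 in Hep3B, 1.49 ± 0.18 higher (adjusted p = 0.000124), and CCNB1, described with the cyclins, completed the 6.

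All 6 cyclin, CDC25 and FOXM1 genes were lower in Huh7.5.1 than in Hep3B, with a median difference of -0.94, and this held with no shift taken off, with quantile normalization and with centred arrays. CCNB1 had 9.39 and 9.69 in Huh7.5.1 and 10.86 and 10.99 in Hep3B, a difference of -1.60 ± 0.15 (adjusted p = 2.28e-05). With the mean of all probe sets CDC25B was at -0.04 and FOXM1 at -0.32, and neither was past the test (adjusted p = 0.796 and 0.0934). Among the kinases, CDK1 and TTK were higher in Huh7.5.1 and AURKB, PLK1, BUB1B and BUB1 lower. With no shift taken off PLK1 was at -0.57 and BUB1 at -0.25, and neither was past the test (limma, adjusted p = 0.0696 and 0.241). Nor were PLK1, at -0.39, and TTK, at 0.37, with the mean of all probe sets (adjusted p = 0.131 and 0.071). CDK1 had 11.20 and 11.10 in Huh7.5.1 and 10.06 and 10.12 in Hep3B, opposite to its cyclin CCNB1 by the probe set used. The CDK1 difference of 0.83 was 0.31 when averaged over its probe sets and 0.47 once _x_at and _s_at probe sets were dropped, and then not past the test (adjusted p = 0.131 and 0.0641). Among the kinesins KIF15, KIF20B and KIF18A were higher and 2 were lower. The KIF15 call (0.68, adjusted p = 0.0428) was lost in 11 of 14 alternatives, with values from 0.26 to 1.10. That of KIF20B (0.74) was lost without Hep3B DMSO replicate 3, at 0.40, and without either Huh7.5.1 DMSO array (adjusted p = 0.1, 0.071 and 0.0633). Of the lower ones KIF22 had other probe sets at 0.77 and 0.35 and was at 0.73 once _x_at and _s_at probe sets were dropped (adjusted p = 0.00589). Of the cytokinesis genes ANLN and ECT2 were lower. With no shift taken off ECT2 was at -0.29 and not past the test (limma, adjusted p = 0.175). Without Hep3B DMSO replicate 2 or 3, or Huh7.5.1 DMSO replicate 1 or 2, PLK1 had adjusted p of 0.0531, 0.123, 0.0542 and 0.0982 and BUB1 of 0.189, 0.0632, 0.0601 and 0.227. ECT2 lost its call without the first 3 of these (adjusted p = 0.136, 0.0787 and 0.21) and TTK without the last 3 (adjusted p = 0.233, 0.134 and 0.0974).

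**Figure D5:**
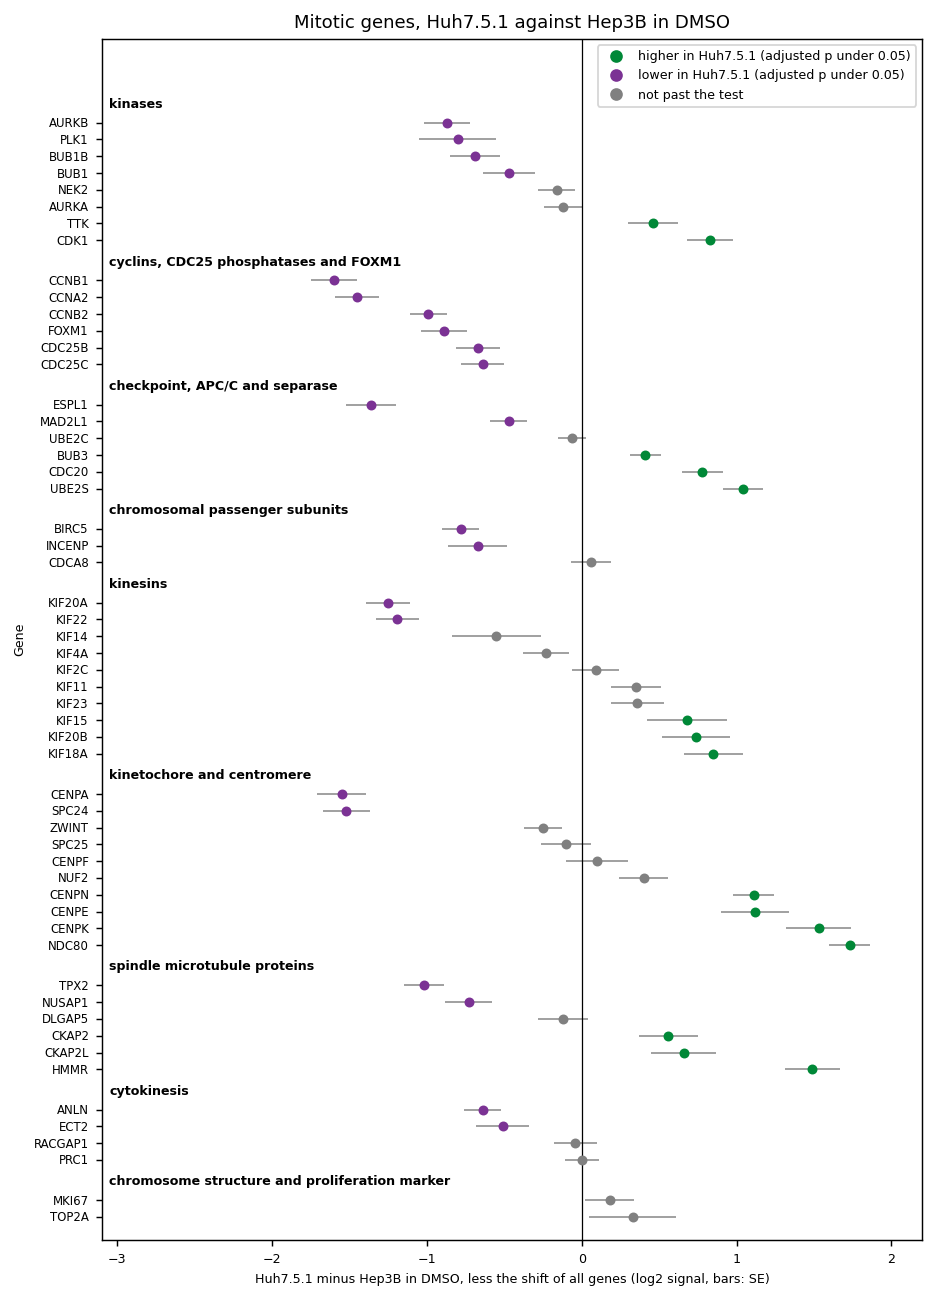
Difference of each measured member, Huh7.5.1 minus Hep3B in DMSO, less the median shift of all tested genes, in log2 signal on the horizontal axis, with members grouped by role down the page (points: limma estimate over 2 arrays a group, bars: SE). Green points were higher and purple points lower in Huh7.5.1 at an adjusted p under 0.05, and grey points were not past the test. The cyclin, CDC25 and FOXM1 points are all purple, while the kinetochore role holds both the highest point, NDC80 at 1.73, and CENPA at -1.55. Of the points drawn, AURKA, NEK2, UBE2C, SPC25, DLGAP5, RACGAP1 and PRC1 change sign with no shift taken off, and CDCA8, CENPF, KIF2C and MKI67 with centred arrays.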

How the data were processed

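The values were the value table deposited by the authors, with 49395 probe sets and 8 columns. MAS5 is the tool named, with no version, for making these deposited log2 signals, per the submitters' processing notes. Their range gave the log base, and the rule by which arrays were scaled stays unknown. RNA was biotin-labelled by 3′ in vitro transcription, per the labels' protocols. Control probe sets (102) were dropped. By the platform annotation 44988 probe sets had 1 symbol, 1832 several and 2473 none, and only those with 1 symbol were named. Of these, 44961 matched RefSeq genes by Entrez identifier and 0 symbols changed. Both Hep3B CU27 columns were linear functions of the Hep3B DMSO columns within 1e-06 and were left out. The Hep3B DMSO columns held equal values at 1077 probe sets, with 0 among those used for the members.

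The probe set of highest mean signal stood for each gene. Genes were tested when a group mean reached the floor, the 50th percentile of all values that were not controls (log2 6.11), which left 11383 genes. Comparisons used limma 3.58.1 under R 4.3.3 (lmFit, eBayes with intensity trend) over the 6 arrays of 3 groups, with 3 residual and 5.87 prior degrees of freedom. Tests were two-sided, with Benjamini-Hochberg adjustment over all genes tested, with a threshold of 0.05, and for single probe sets over 27836 of them. For the lines, the median difference of all genes was taken off the Huh7.5.1 arrays. The labels call the replicates biological, and p-values take the arrays of a group as separate cultures. For the Hep3B DMSO columns this could not be checked, given the linear relation and the equal values above. Their spread enters the p-values of both comparisons. No exact permutation test was used, since with 2 arrays a group its smallest p is 0.333. Precision is limited by the number of arrays.

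Promoters came from RefSeq (GRCh38.p14). The procedure was tested on simulated data, whose planted changes were larger than those of most members. Alternatives were other scaling, floors, probe set choices and moderation, fewer arrays and a replicate block. Members and gene lists were chosen with earlier results of these data known. By the rule for named genes, values of every array are given for up to 3 members of each role with the smallest p, for the member of each role that went against the rest or moved least, and for MKI67, TOP2A, CDK1, CCNB1, PLK1 and AURKB. Between lines the 6 largest differences are given, and of other lists up to 3 genes with the smallest p. A gene that this rule names among the other lists is not reported here.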

Additional observations from a re-analysis of the deposited data

How the results depend on the processing

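The count of members that fell with CU27 stayed at 26 to 35 under other scaling, floors, probe set choices and moderation, with only the Huh7.5.1 arrays and with the replicate block. With single arrays left out it ran from 10 to 29, the count of members changed from 11 to 31, that of members that rose from 1 to 2 and that of all genes changed from 887 to 2972, with the lone array of a group taken to vary like the other groups. With the mean of all probe sets 0 members rose by limma, also at an unadjusted p under 0.05. The numbers of the Huh7.5.1 replicates gave a correlation of 0.179 between the replicate differences of CU27 and DMSO over 11383 genes from 2 pairs, which does not show that they pair the cultures. With the replicate block 38 members were called, 35 falls and 3 rises, including all 33 of the fit without it and adding AURKB, CKAP2, KIF14, KIF4A and TOP2A (TOP2A at -0.82, adjusted p = 0.00065), and 33.1% of all genes were called. No paired analysis was possible between the lines because they share fewer than 2 replicate numbers.

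Of 821 values of single members with CU27 under the alternatives, 715 kept their direction and side of the threshold, 75 lost and 20 gained the call and 11 turned sign. With the mean of all probe sets CENPN was at -0.46 and INCENP at 0.08, and without _x_at and _s_at probe sets NEK2 was at -0.19. With single arrays left out INCENP ran from -0.24 to 0.06, KIF15 from -0.13 to 0.09, MKI67 from -0.24 to 0.11, CKAP2L from -0.12 to 0.26 and PLK1 from -0.50 to 0.33. For CENPN the probe sets themselves differ in sign. For the others the cause was not tested, and none of them was past the test.

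Between the lines, 718 of 821 values kept direction and side, 53 lost and 17 gained the call and 33 turned sign, and 21 of 37 calls held in each alternative that measured them. With no shift taken off AURKA was at 0.10, DLGAP5 at 0.10, NEK2 at 0.06, PRC1 at 0.22, RACGAP1 at 0.18, SPC25 at 0.12 and UBE2C at 0.17, by construction of the shift. With centred arrays CDCA8 was at -0.14, CENPF at -0.09, KIF2C at -0.11 and MKI67 at -0.02, and PRC1 was at 0.06 with quantile normalization and at 0.01 with the floor at the 60th percentile and with only the DMSO arrays. With the mean of all probe sets KIF11 was at -0.25, KIF2C at -0.10, PRC1 at 0.35 (past the test, adjusted p = 0.0409), RACGAP1 at 0.15, SPC24 at 0.12 and TOP2A at -0.05, and without _x_at and _s_at probe sets KIF22 was at 0.73 and RACGAP1 at 0.42, both past the test (adjusted p = 0.00589 and 0.0367). With single arrays left out the line difference ran from -0.03 to 0.14 for CDCA8, -0.27 to 0.02 for DLGAP5, -0.05 to 0.05 for PRC1, -0.20 to 0.40 for CENPF, -0.14 to 0.06 for RACGAP1, 0.00 to 0.36 for MKI67, -0.03 to 0.70 for TOP2A and -0.02 to 0.20 for KIF2C. The cause was not tested. The number of arrays, 2 a group, limits the precision, and signals near the floor have little signal over background.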
